A study of Rattus norvegicus with 32 samples.

Results

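The solute carrier genes described here were the probe sets of a rat Affymetrix array that carried exactly 1 gene symbol, beginning with Slc and a digit. Of the 8799 probe sets on the array 181 met this rule, and they covered 120 genes in 37 families. The digits after Slc give the family number, by which the genes were grouped by substrate. Testing required a signal above 78.4, the median of all signals in linear units, on 5 or more of the 30 single-sample arrays. This left 98 probe sets of 72 genes in 29 families. The other 83 probe sets lay below that level on nearly all arrays, and 48 genes had no tested probe set. At the edge of the filter, probe sets of Slc6a5 and Slc25a14 had 5 arrays above the median, and probe sets of Slc6a3, Slc22a13, Slc26a1, Slc27a2 and Slc34a1 had 4 and were left out.

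RNA came from normal mammary gland of rats, and the title of the series concerns inherited susceptibility to mammary cancer. Each of 6 groups had 5 arrays: the F1 hybrid, from a cross of Cop with F344, its parents, and the further inbred strains ACI, BUF/N and WF. Of 2 more arrays, 1 was labelled a pool of Cop and 1 a pool of F344, and they stayed out of all tests. The labels name no treatment, age, sex or hormonal state, and leave it unstated whether each sample was a different rat; the p-values therefore rest on sample-to-sample spread, part of which may be technical. As background, Cop rats are known for resistance to mammary tumours after carcinogen treatment, a trait inherited by their hybrids, whereas F344, BUF/N and WF rats are susceptible.

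Solute carriers move small molecules across the plasma membrane and across the membranes of mitochondria, vesicles and the endoplasmic reticulum. They work as exchangers, cotransporters or facilitated carriers of a single solute. Some act as pairs of a heavy chain, which carries the complex to the membrane, and a light chain, which binds the substrate. The mammary gland depends on them for the glucose, amino acids, nucleosides, choline, iodide and metal ions that reach milk, and its fat cells for glucose and fatty acid uptake.

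The promoters of 4 genes are shown because these genes had the smallest p-values of the F test over the groups among the solute carriers, and they were chosen after those values were seen. Each run holds the 250 bases before the first listed start of the gene, read 5′ to 3′ along the gene's strand, from RefSeq on GRCr8, a reference that comes from none of the strains compared. Capitals mark 3 motifs searched on either strand: the GC box, spelled GGGCGG, the CAAT box, spelled CCAAT, and the TATA box, spelled TATAAA. Slc1a3, a glutamate and aspartate transporter, starts on the minus strand (chr2:59557809-59558058), and Slc22a3, a transporter of organic cations, on the plus strand (chr1:50782968-50783217). Slc44a4, a choline transporter-like protein, lies on the minus strand (chr20:3923855-3924104), and Slc37a1, a sugar phosphate exchanger of the endoplasmic reticulum, on the plus strand of the same chromosome (chr20:9379932-9380181).
Slc1a3: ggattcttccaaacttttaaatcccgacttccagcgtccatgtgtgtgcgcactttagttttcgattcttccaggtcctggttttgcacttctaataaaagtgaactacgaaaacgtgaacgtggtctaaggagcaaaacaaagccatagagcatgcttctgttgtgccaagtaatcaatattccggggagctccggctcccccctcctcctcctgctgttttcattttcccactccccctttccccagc
Slc22a3: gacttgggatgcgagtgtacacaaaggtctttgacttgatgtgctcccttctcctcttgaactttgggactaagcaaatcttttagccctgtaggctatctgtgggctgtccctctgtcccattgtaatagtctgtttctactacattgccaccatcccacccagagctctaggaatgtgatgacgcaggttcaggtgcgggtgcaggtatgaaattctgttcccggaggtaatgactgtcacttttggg
Slc44a4: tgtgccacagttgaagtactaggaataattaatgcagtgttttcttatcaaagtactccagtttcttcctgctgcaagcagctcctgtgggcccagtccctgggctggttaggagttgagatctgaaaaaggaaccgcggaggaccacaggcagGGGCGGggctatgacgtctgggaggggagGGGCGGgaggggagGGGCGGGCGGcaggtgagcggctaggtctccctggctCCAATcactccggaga
Slc37a1: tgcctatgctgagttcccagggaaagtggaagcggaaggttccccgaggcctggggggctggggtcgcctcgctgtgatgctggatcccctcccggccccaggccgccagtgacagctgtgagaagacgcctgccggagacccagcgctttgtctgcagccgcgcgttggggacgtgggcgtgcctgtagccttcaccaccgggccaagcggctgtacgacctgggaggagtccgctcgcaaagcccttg

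Only the window of Slc44a4 held a match, with 4 of the GC box, of which a pair overlapped, and 1 of the CAAT box. These windows had 9, 4, 9 and 19 CG dinucleotides in the order printed, and 48%, 48.8%, 58.4% and 67.6% G or C. Over all 27457 promoters of this length 32.4% held a GC box, 34.3% a CAAT box and 13.1% a TATA box, against 48.5%, 35.6% and 8.91% of the 101 solute carrier genes with a promoter in the table. The median number of CG dinucleotides was 6 over all promoters and 11 over those of the solute carriers, with a median G or C content of 52% and 59.2%. A match of letters is a description, and no binding was measured.

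In limma's F test over the 6 groups, 53 of the 98 probe sets (54.1%), belonging to 41 genes, differed at an adjusted p under 0.05. The share over all 5039 tested probe sets was 51.8%, so the solute carriers were called about as often as any gene on the array. All 10 tested probe sets of amino acid carriers differed, though 4 of them belonged to Slc1a3. Among mitochondrial carriers 8 of 16 differed, among the sugar and sugar phosphate carriers 7 of 13, and among carriers of organic ions 4 of 6. In limma's F test 0 of 3 probe sets classed as phosphate carriers passed, with 2 at an unadjusted p under 0.05. Those classed as vitamin carriers had 0 of 3 and as fatty acid carriers 0 of 1, with 0 and 0 at that unadjusted p. Classes followed the family number alone. Slc5a6, a carrier of biotin and pantothenate, was therefore counted with the sugars, and the phosphate carrier Slc25a3 with the mitochondrial carriers. Both of these genes differed in the F test. Of 22 genes with several tested probe sets, 8 were called by all of them, 8 by some and 6 by none, and in the 7 contrasts reported below no gene was called in opposite directions by its probe sets.

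**Figure D1:**
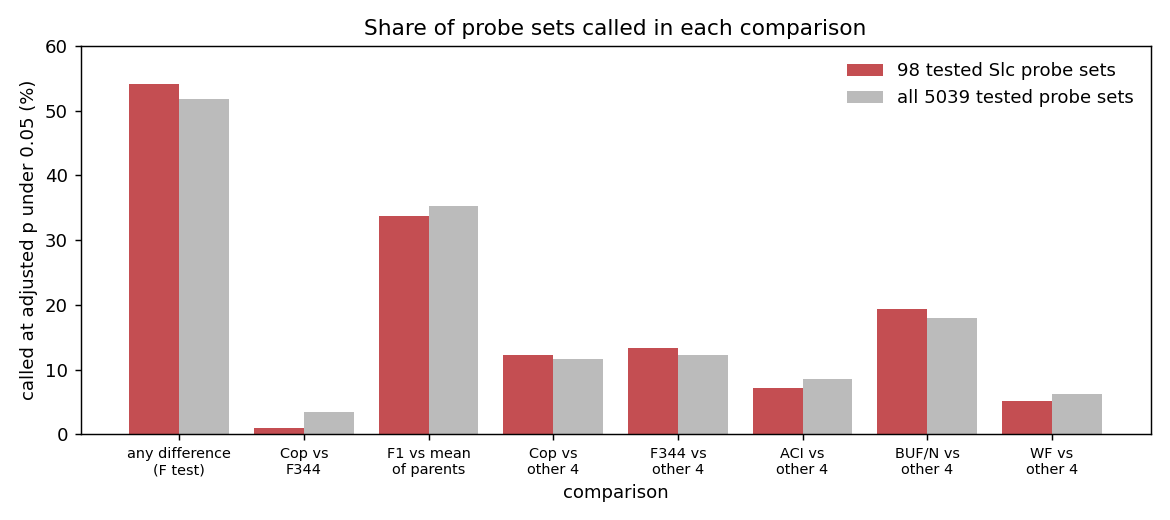
Percent of probe sets called at an adjusted p under 0.05 (vertical axis) in each of 8 comparisons, for the 98 tested solute carrier probe sets and for all 5039 tested probe sets. The bars of a pair lie within a few percentage points of each other, with 54.1% against 51.8% in the F test. For Cop against F344 the solute carrier share, 1.02% or 1 probe set, is smaller than the 3.45% of all probe sets.

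Among the 41 genes that differed, the group mean was highest in BUF/N for 12 (29.3%) and in ACI for 11 (26.8%). It was highest in F1 for 7 (17.1%), in Cop and in F344 for 5 each (12.2%) and in WF for 1 (2.44%). Over all 2611 probe sets that differed, these shares were 18.5% in BUF/N, 17.1% in ACI, 24.2% in F1, 14.7% in Cop, 15.3% in F344 and 10.1% in WF. The mean was lowest in F1 for 13 of the 41 (31.7%, against 27.3% of all that differed) and in F344 for 11 (26.8% against 21.2%). It was lowest in Cop for 6 (14.6% against 16%) and in BUF/N for 5 (12.2% against 15.8%). ACI was lowest for 4 (9.76% against 13.3%) and WF for 2 (4.88% against 6.36%). F1 lay outside the range of the Cop and F344 means for 36 of the 41, or 87.8%, against 85.5% of all probe sets that differed, a test that F1 itself entered. BUF/N and WF lay on the same side of the mean of the 6 groups for 29, or 70.7% against 70.5%, and Cop and F344 for 32, or 78% against 72%. These are counts of group means, with no test of their own.

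**Figure D2:**
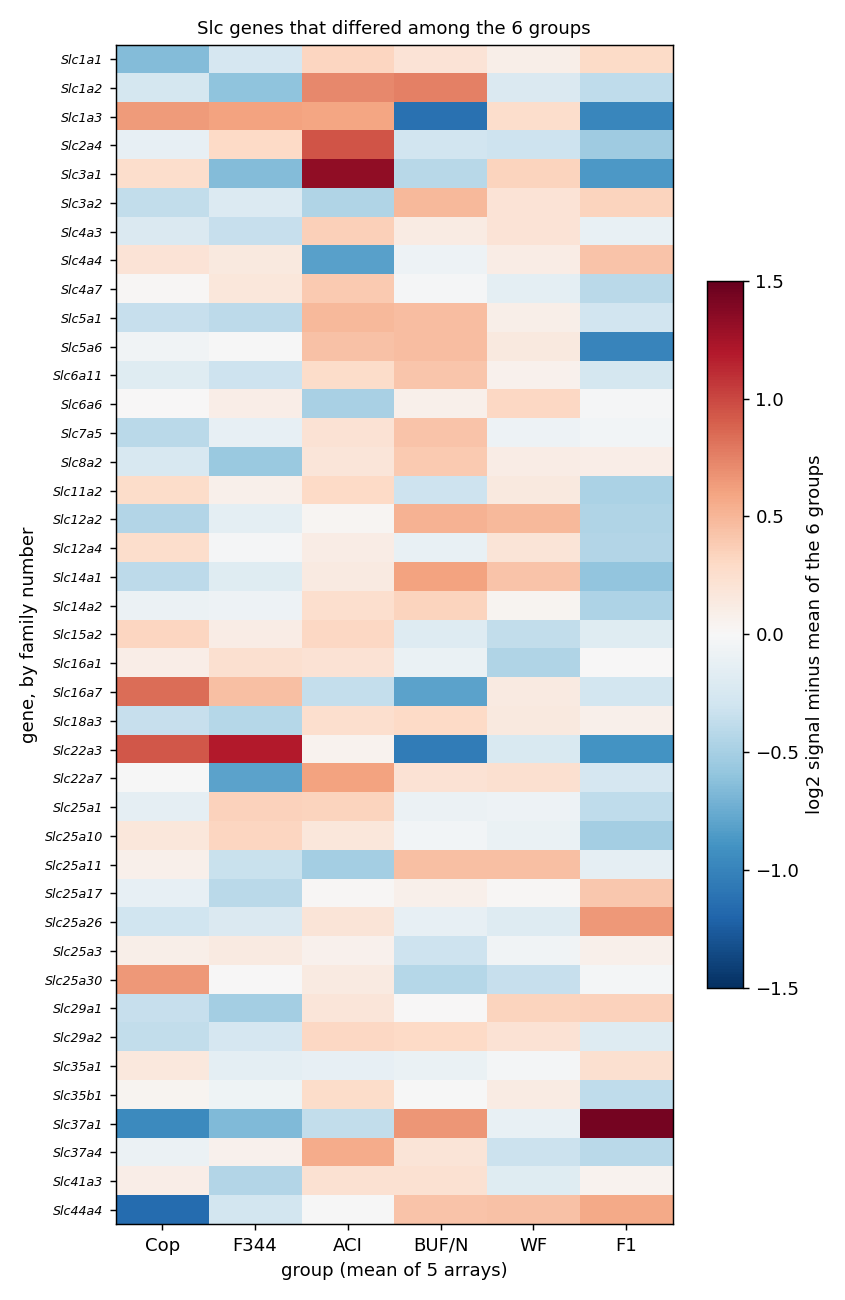
Group mean of log2 signal minus the mean of the 6 groups (colour, saturated beyond 1.5 on the log2 scale) for the 41 solute carrier genes that differed in the F test, 1 probe set per gene, in order of family number. Slc1a3 and Slc22a3 are low in BUF/N and F1, Slc37a1 is high in F1, and Slc44a4 is low in Cop.

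Several arrays and cell type markers moved together with these groups. Arrays of the same group correlated at r = 0.846 to 0.978 over all tested probe sets, which are not independent replicates, against 0.788 to 0.954 between groups, and F1 2, F1 3, ACI 2 and ACI 5 often stood apart from the rest of their groups. For the actin control, 3′ over 5′ signal was 1.78 and 1.80 on ACI 2 and ACI 5, while the remaining ACI arrays lay between 1.19 and 1.34. F1 2 and F1 3 gave 1.49 and 1.27, and the remaining F1 arrays 1.58 to 1.98. This ratio also differed between groups, and every F1 array lay above every WF array, with 1.01 to 1.25 in WF. The F1 range overlapped with those of its parents, 1.1 to 1.72 in Cop and 1.23 to 1.48 in F344. It also overlapped with those of ACI and of BUF/N, 1.01 to 1.5. The part of this ratio in the group differences was not tested. All 10 tested luminal epithelial markers of the 13 listed differed in the F test, and their summed signal ran from 4037 to 6607 in Cop, 5099.7 to 7168 in F344 and 4609.9 to 7139 in ACI, but from 10023 to 14128 in BUF/N, 9529 to 14188 in WF and 7399 to 10921 in F1. The first 3 groups did not overlap with the last 3. The 7 milk protein genes ran from 4898 to 11663 in Cop up to 18001 to 41635 in F1.

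Of the 17 adipocyte markers 13 were tested and 10 differed, with sums of 25784 to 32864 in Cop, 25048 to 27722 in F344, 22078 to 24141 in ACI, 16601 to 22274 in BUF/N, 19633 to 28594 in WF and 24385 to 27709 in F1. Skeletal muscle markers varied widely between arrays, from 5596 to 27839 in F344 to 779 to 3841 in F1, where Cacna1s and Eno3 were at the floor on all 5 arrays; 12 of 13 tested members differed. The 8 tested basal and smooth muscle markers, of which 6 differed, ran from 5186 to 8966 in Cop to 11427 to 13705 in F1. For red cells both tested markers differed, with 3240.3 to 6379.9 in F344 and 965 to 1264 in ACI. Of brown adipocyte markers 2 of 2 tested differed, of macrophage markers 4 of 4, of mast cell markers 3 of 4 and of endothelial markers 2 of 3. Of the 8 tested T lymphocyte markers 0 differed in limma's F test, and 0 lay at an unadjusted p under 0.05. Dio2 and Mcpt1 were at the floor on all arrays of Cop, F344 and F1, and Vwf on all of F1. In such bulk samples fewer cells of a type and less RNA per cell cannot be told apart.

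**Figure D3:**
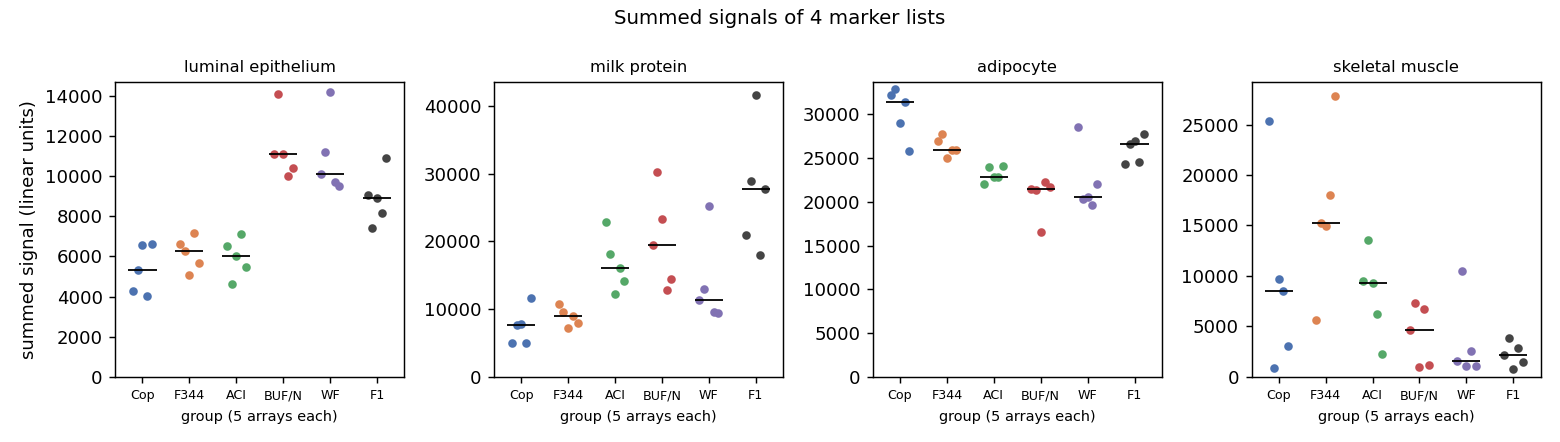
Summed linear signal of the markers of 4 lists (vertical axis, a scale for each panel) on each of 30 arrays, by group, with the group median as a line. Luminal epithelial sums are higher in BUF/N, WF and F1 than in Cop, F344 and ACI, and skeletal muscle sums spread widely within groups.

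Of the carriers of amino acids, Slc1a3 showed the smallest p of all solute carriers. Probe set X63744_g_at gave signals of 119, 88.2, 70.5, 107 and 99.1 in Cop, 90.5, 96.1, 128, 69.5 and 88.1 in F344 and 58.2, 78.2, 149.8, 112 and 89.1 in ACI. The signals were 34.7, 25.1, 23.8, 20.3 and 41.5 in BUF/N and 29.6, 24.5, 28.7, 37.2 and 37.4 in F1, against 48.8, 86.3, 56.7, 115 and 79.3 in WF. All BUF/N arrays lay below all arrays of the other inbred strains, and all F1 arrays below all arrays of both parents. BUF/N was 3.14-fold lower than the mean of the other 4 inbred strains, a log2 change of -1.65 (SE 0.21, adjusted p = 2.06e-06). F1 was 3.02-fold below the mean of its parents, at -1.60 (SE 0.23, adjusted p = 6.79e-06). Folds and changes given for F1 below are likewise against this mean, unless another group is named.

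The other 3 Slc1a3 probe sets also differed among the groups and were lower in BUF/N and in F1. At X63744_at WF was low as well, with log2 changes of 1.07 for Cop minus WF and 1.11 for F344 minus WF (adjusted p = 0.0230 and 0.0228). BUF/N against WF was not called there (0.672) or at S75687_s_at (0.142), but was called at S59158_at (0.0209). The brightest, S59158_at, had 811 ± 62.6 (SD, n = 5) in Cop, 719 ± 62.7 in F344, 709 ± 162 in ACI, 332 ± 95.6 in BUF/N, 573 ± 82.9 in WF and 458 ± 156 in F1; values with ± are means and SD over the 5 arrays throughout. Here BUF/N 1 reached 469, just above the 462 of WF 1, and F1 4 reached 656, within the parents' range. The fall in F1 was 1.75-fold and that in BUF/N 2.16-fold. Without F1 2 and F1 3 the change of X63744_g_at in F1 was -1.44 (adjusted p = 0.000490). The adipocyte sums of BUF/N, 16601 to 22274, lay below those of both Cop and F344, and those of F1 overlapped with both but reached 27709 against 32864 in Cop; their part in the Slc1a3 differences was not tested.

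Slc1a1 and Slc1a2 are glutamate transporters of the same family, known from neurons and epithelia and from astrocytes respectively. Slc1a1 was lowest in Cop, with 45 ± 11.8, and had 58.9 ± 13.6 in F344, 87.1 ± 21 in ACI, 79.6 ± 11.8 in BUF/N, 73.4 ± 11.7 in WF and 84.5 ± 11.3 in F1. Cop fell 1.68-fold below the mean of the other inbred strains (adjusted p = 0.00334), and F1 was 1.68-fold above the mean of its parents (adjusted p = 0.00277). F1 was called above Cop (adjusted p = 0.00181) but not above F344 (0.0535). Slc1a2 was dim, with 98.2 ± 38.1 in ACI and 98.7 ± 31.9 in BUF/N against 37.4 ± 18.8 in F344 (adjusted p of the F test 0.00850). Its call in BUF/N against the other strains (adjusted p = 0.0477) was lost in 18 of the 30 fits that left out 1 array each, at adjusted p of 0.0504 to 0.155, and under quantile normalization (0.0545), median centring (0.0552), the lower floor (0.0709) and no filter (0.0813).

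Slc3a1 is the heavy chain of the kidney and intestinal transporter of cystine and basic amino acids. In ACI its signals were 252, 252, 163, 132 and 274, against 81.9, 107, 122, 131 and 64.8 in Cop and 66.4, 57.6, 38.5, 51 and 50.9 in F344. BUF/N gave 23.2, 61.3, 70.7, 97.5 and 89.5, WF 129, 98.8, 90.8, 85.4 and 119 and F1 69.7, 13.3, 23.6, 84.1 and 72.5. The lowest ACI array, 131.5, lay just above the highest of the other inbred strains, 130.9 in Cop, and this was the 1 member whose ACI arrays all lay above the other inbred arrays (background 0.258%). ACI was 2.73-fold above the mean of the other strains, a log2 change of 1.45 (SE 0.29, adjusted p = 0.00179), and without ACI 2 and ACI 5 it was 1.22 (adjusted p = 0.0755). F344 was 2.05-fold below the other strains (adjusted p = 0.0198; 0.0785 without F344 3 and 0.0598 without F344 5).

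Slc3a2, the heavy chain shared by many amino acid transporters of the plasma membrane, was brightest in BUF/N. Probe set AB015433_s_at had 891 ± 216 in Cop, 987 ± 197 in F344, 874 ± 300.1 in ACI, 1579 ± 173 in BUF/N, 1339 ± 383 in WF and 1422 ± 111 in F1. All BUF/N arrays lay above those of Cop, F344 and ACI, and F1 was 1.54-fold above its parents (adjusted p = 0.00891). The second probe set, X89225cds_s_at, gave 0.884 as adjusted p for F1 against its parents, with signals of 1327, 567, 437, 1248 and 1101, so that F1 2 and F1 3 were low. It was also 1.70-fold lower in ACI than in the other strains (adjusted p = 0.00873; 0.0667 without ACI 2 and 0.279 without ACI 2 and ACI 5). Slc7a5, the light chain that pairs with it to carry large neutral amino acids, had 279 ± 46.4 in BUF/N and 159 ± 39.9 in Cop, a log2 difference for Cop minus BUF/N of -0.83 (SE 0.20, adjusted p = 0.00388). Its F test (adjusted p = 0.0187) was lost under median centring (0.0781) and quantile normalization (0.0595). The luminal marker sums were likewise higher in BUF/N than in Cop, and their part in these differences was not tested.

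Among the sugar carriers, Slc37a1 had the largest change of any solute carrier in the hybrid. Its signals in F1 were 95.6, 149, 154, 82 and 110. In the parents they were 7.30, 10.4, 24, 10.3 and 34.2 in Cop and 16.3, 48.7, 11.4, 31 and 27.3 in F344. BUF/N gave 63, 72.6, 61.3, 85.9 and 56.4, WF 19.5, 84.6, 49.9, 34.9 and 31.5 and ACI 55.9, 17.9, 50.3, 35.8 and 20.1. Every F1 array lay above every array of both parents, and only BUF/N 4 and WF 2 of the other strains reached the lowest F1 array. F1 was 4.73-fold above the mean of its parents, a log2 change of 2.24 (SE 0.31, adjusted p = 5.11e-06), and 1.98 without F1 2 and F1 3 (adjusted p = 0.000652). BUF/N was 2.28-fold above the other inbred strains (adjusted p = 0.00437). Of the Cop arrays 3, and of the F344 arrays 2, were below the floor of 18.3 applied before the test, so these folds depend on that floor. All F1 arrays lay above the median signal that the filter required, and of the others only BUF/N 4 and WF 2. The choice of Slc37a1 for testing was therefore not independent of its high F1 signals. Its call in F1 held with no filter. The luminal and milk protein sums were likewise higher in F1 than in its parents, and their part in this difference was not tested.

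Slc2a4, the insulin-responsive glucose transporter of muscle and fat, differed by both probe sets, and single arrays weighed on it. Probe set D28561_s_at gave 291, 52.9, 53.2, 338 and 430 in F1, 517, 265, 394, 108 and 248 in Cop and 495, 311, 614, 418 and 1111 in F344. Its means were 509 ± 38.8 in ACI, 248 ± 54.2 in BUF/N and 254 ± 33.1 in WF. The log2 change of F1 against its parents was -1.21 (SE 0.39, adjusted p = 0.0167), and it was -0.13 without F1 2 and F1 3 (adjusted p = 0.815), or not called without either (0.116 and 0.114). This call was also lost with array weights (0.341) and with only the arrays compared (0.0783). The other probe set, rc_AA799760_s_at, was 2.07-fold higher in ACI than in the other strains (adjusted p = 0.0137), with 267 in ACI 2 and 207 in ACI 5 against 81.3 to 109 in the other ACI arrays. Without ACI 2 and ACI 5 that change was 0.53 (adjusted p = 0.466; 0.109 without ACI 2 alone and 0.0792 without ACI 5 alone), and its F test was lost (0.0887). The skeletal muscle sums were 779 to 3841 in F1, below 5596 to 27839 in F344 and overlapping with 869 to 25342 in Cop, with 3841 and 779 in F1 2 and F1 3; their part in these differences was not tested.

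Slc2a1, the basal glucose transporter, had 239 ± 52 in Cop and 300.4 to 339.9 as means of the other groups, and did not pass the F test (adjusted p = 0.400). Its dimmer probe set M13979_at was 1.66-fold higher in F1 than the mean of its parents (adjusted p = 0.0241). F1 was called higher than Cop there, with a log2 change of -1.07 for Cop minus F1 (adjusted p = 0.00720). Against F344 it was not called (0.324). Slc37a4, which carries glucose phosphate into the endoplasmic reticulum, had 426 ± 65.5 in ACI and 227 ± 76 in F1; its call in ACI (adjusted p = 0.0472) was lost in 15 of the 30 fits without 1 array, at 0.0515 to 0.175, and under median centring (0.142), no filter (0.0613), the replicate block (0.0625), array weights (0.0695), no variance trend (0.0504) and without ACI 2 and ACI 5 (0.351). Slc5a6, a sodium-coupled carrier of biotin and pantothenate, was 1.95-fold lower in F1 (adjusted p = 0.0127), with signals of 88.7, 25.2, 23.3, 94.5 and 89.6. F1 2 and F1 3 were low here and high at its second probe set, 209, 498, 482, 214 and 334, which was not called (adjusted p of the F test 0.403). Without those arrays the F test of the first gave an adjusted p of 0.125.

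**Figure D4:**
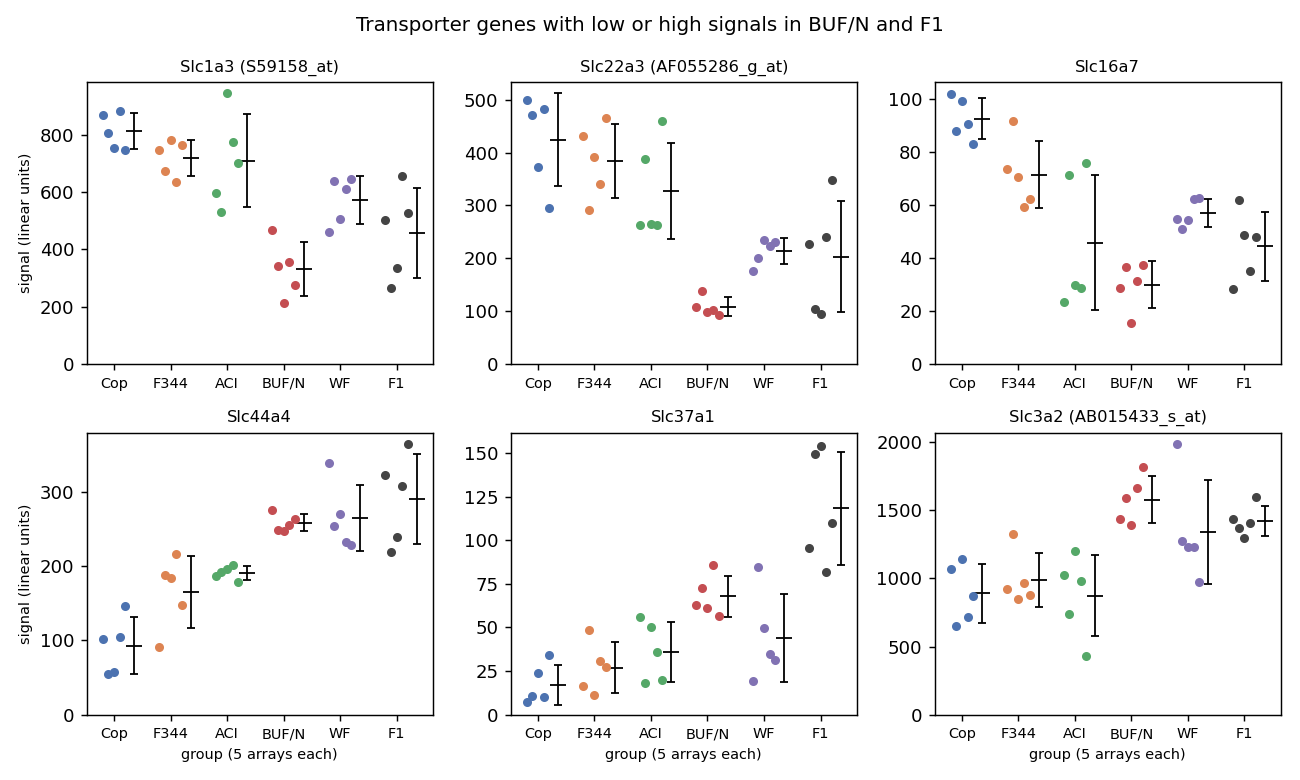
Linear MAS 5.0 signal (vertical axis, a scale for each panel) of 6 solute carrier probe sets on each of 30 arrays, by group, with mean and SD beside the points. Slc1a3 and Slc22a3 have their lowest means in BUF/N and F1, Slc16a7 is low in BUF/N, F1 and ACI, Slc44a4 and Slc3a2 are high in BUF/N, WF and F1, and Slc37a1 is highest in F1 and then BUF/N.

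Slc16a7, a high-affinity pyruvate and lactate carrier, was brightest in Cop. Its signals were 102, 88.2, 99.5, 90.5 and 83.3 in Cop, 73.5, 91.8, 70.8, 59.5 and 62.3 in F344 and 54.6, 51, 54.3, 62.4 and 62.7 in WF. BUF/N gave 28.6, 36.7, 15.6, 31.4 and 37.5, F1 28.2, 62.1, 48.7, 35.3 and 48 and ACI 23.3, 71.5, 29.8, 28.7 and 76. All BUF/N arrays lay below those of Cop, F344 and WF, while ACI 2 and ACI 5 lay apart from the other 3 ACI arrays. Cop was 1.97-fold above and BUF/N 2.11-fold below the mean of the other strains (adjusted p = 0.00363 and 0.00140). F1 was 1.89-fold below its parents (adjusted p = 0.00515). All Cop arrays lay above the median signal that the filter required, and of the others only F344 2. The choice of Slc16a7 for testing was therefore not independent of its high Cop signals. Its call in Cop held with no filter. Slc16a1, the widespread lactate carrier, did not pass the F test at its brighter probe set, rc_AI145680_s_at (adjusted p = 0.0757). That probe set was 1.30-fold higher in F344 than in the other strains (adjusted p = 0.0417), a call lost in 9 of the 30 fits without 1 array, at 0.0509 to 0.199, and under quantile normalization (0.0612). The F test of this probe set passed without F1 2 and F1 3 (adjusted p = 0.0256) without ACI 2 and ACI 5 (0.0150), with median centring (0.0236) and with array weights (0.00511). D63834_at was 1.48-fold lower in WF (adjusted p = 0.0342; 0.103 to 0.138 without WF 1, WF 2 or WF 5, 0.0567 with no filter).

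Carriers of organic ions held the second gene of the ranking. Slc22a3 at probe set AF055286_g_at gave 499, 472, 373, 483 and 295 in Cop, 432, 291, 392, 341 and 465 in F344 and 263, 388, 265, 263 and 459 in ACI. It gave 109, 139, 97.6, 103 and 93.4 in BUF/N, 176, 201, 234, 224 and 231 in WF and 227, 105, 95.3, 239.8 and 348 in F1. All BUF/N arrays lay below all other inbred arrays, whereas F1 5 lay within the range of the parents and F1 2 and F1 3 with BUF/N. BUF/N was 3.0-fold below the other strains, a log2 change of -1.58 (SE 0.20, adjusted p = 2.51e-06). This probe set and that of Slc1a3 were the 2 members whose BUF/N arrays all lay below the other inbred arrays (background 0.357%).

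The second Slc22a3 probe set, AF055286_at, was dimmer and had 101 ± 33 in Cop, 121 ± 38.2 in F344, 54.3 ± 13 in ACI, 24.9 ± 7.62 in BUF/N, 44.5 ± 9.78 in WF and 28.5 ± 16.3 in F1. Here all F1 arrays, 13.2 to 53.9, lay below all parental arrays, and the fall was 3.87-fold, at -1.95 (SE 0.26, adjusted p = 3.54e-06). Without F1 2 and F1 3 it was -1.56 (adjusted p = 0.000443). At this probe set F344 was 2.40-fold above the mean of the other inbred strains (adjusted p = 6.68e-04). Cop was 1.82-fold above at the brighter one (adjusted p = 0.00406). At AF055286_at only Cop and F344 arrays lay above the median signal that the filter required. The choice of this probe set for testing was therefore not independent of its high Cop and F344 signals. Its calls in F1 and in F344 held with no filter.

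Slc44a4 was the 1 solute carrier called between Cop and F344. Its signals were 102, 54.2, 57.6, 105 and 147 in Cop and 91.2, 188, 184, 217 and 148 in F344. They were 187, 192, 196, 202 and 179 in ACI and 275, 249, 248, 256 and 264 in BUF/N, and 339, 254, 270.2, 233 and 229 in WF and 323, 219, 239.7, 308 and 364 in F1. Cop lay below ACI, BUF/N, WF and F1 on every array and overlapped with F344 through F344 1, while every F1 array lay above every parental array. Cop was 1.83-fold below F344, a log2 change of -0.87 (SE 0.22, adjusted p = 0.0213). The call was lost without Cop 2 (0.102), Cop 3 (0.0774), F344 2 (0.0641), F344 3 (0.0550) or F344 4 (0.0857), and with only the arrays of these strains in the fit.

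F1 exceeded the mean of its parents by 2.43-fold at Slc44a4, a log2 change of 1.28 (SE 0.19, adjusted p = 1.39e-05), and by 1.5 on the log2 scale without F1 2 and F1 3 (adjusted p = 7.87e-05). Against the other 4 inbred strains Cop was 2.45-fold lower (adjusted p = 7.91e-06), BUF/N 1.59-fold higher (adjusted p = 0.00856) and WF 1.62-fold higher (adjusted p = 0.0132; 0.0680 without WF 1). From the lowest mean to the highest the order was Cop, F344, ACI, BUF/N, WF and F1; of neighbours in this order, Cop and F344 differed and the others did not pass. The luminal sums were likewise higher in BUF/N, WF and F1 and overlapped between Cop and F344, and their part in any of the Slc44a4 differences was not tested.

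Slc22a5, the carnitine transporter, did not pass the F test (adjusted p = 0.243), with means of 75.6 in F344 to 108 in BUF/N. Slc22a7, a carrier of organic anions known from liver and kidney, was 2.10-fold lower in F344 than in the other strains (adjusted p = 0.0216). The F344 signals were 207, 47.5, 147, 189 and 30.9, with F344 2 and F344 5 low, and the call was lost without either (adjusted p = 0.114 and 0.180).

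The nucleoside carrier Slc29a1 was highest in F1 and WF. Its means were 265 ± 47.2 in Cop, 233 ± 17.2 in F344, 376 ± 42.9 in ACI, 333 ± 29.8 in BUF/N, 423 ± 84.6 in WF and 429 ± 90.4 in F1. Every F1 array (340 to 570) lay above every parental array, and the log2 change was 0.78 (SE 0.13, adjusted p = 4.87e-05). WF was 1.42-fold above the other strains (adjusted p = 0.00759; 0.0668 without WF 3) and F344 1.47-fold below (adjusted p = 0.00214). Slc29a2, of the same family, had 120.4 ± 19.1 in Cop and 129.6 ± 14.4 in F344 against 192 ± 25 in ACI, 191 ± 33.6 in BUF/N and 185 ± 53.2 in WF. Its F test (adjusted p = 0.00917) was lost under median centring and quantile normalization.

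Of the mitochondrial family, Slc25a11, the carrier that exchanges oxoglutarate for malate, had the smallest p of the F test. Probe set U84727_at gave 784, 775, 648, 746 and 608 in BUF/N, 838, 666, 808, 610.1 and 641 in WF and 487, 701, 541, 486 and 530.4 in Cop. It gave 462, 398, 363, 449 and 387 in F344, 352, 351, 434, 423 and 277 in ACI and 318, 506, 686, 393 and 524 in F1. BUF/N and WF lay above F344 and ACI on all arrays. Against the other strains BUF/N was 1.45-fold higher (adjusted p = 0.00514), WF 1.44-fold higher (adjusted p = 0.0113; 0.0531 without WF 1 and 0.0569 without WF 3) and ACI 1.59-fold lower (adjusted p = 0.00114; 0.0730 without ACI 2 and ACI 5). Its second probe set, rc_AA859975_at, had 253 ± 25.3 in BUF/N against 336 ± 23.6 in F344, the other way round, and did not pass the F test (adjusted p = 0.101). The difference between BUF/N and F344 was called in opposite directions by these probe sets, at adjusted p of 0.00127 and 0.0328, so the direction for the gene is uncertain.

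**Figure D5:**
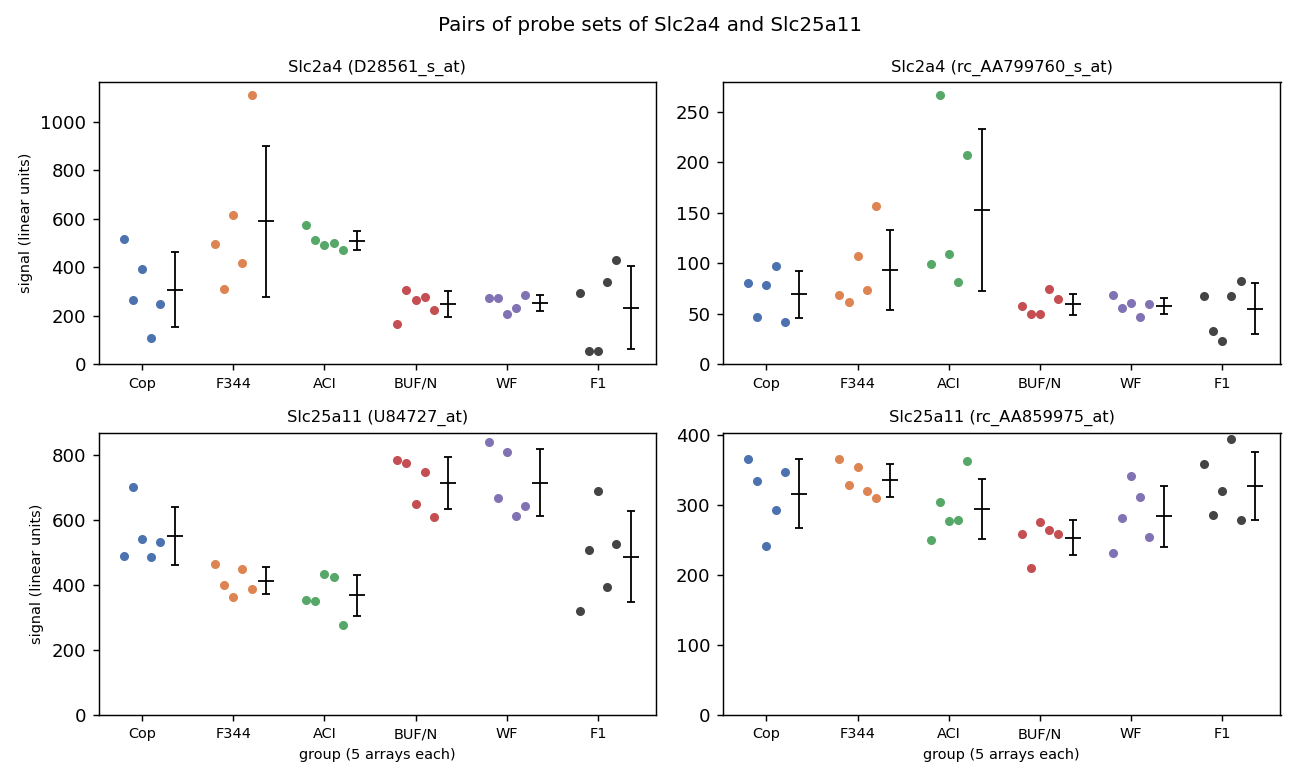
Linear MAS 5.0 signal (vertical axis, a scale for each panel) of both tested probe sets of Slc2a4 and of Slc25a11 on each of 30 arrays, by group, with mean and SD beside the points. Slc2a4 falls to 52.9 and 53.2 in F1 2 and F1 3, and Slc25a11 is high in BUF/N at one probe set and low at the other.

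In F1, Slc25a10, the dicarboxylate carrier, was 1.69-fold lower than in its parents (adjusted p = 1.38e-04), with 572 ± 173 in F1, 887 ± 66.8 in Cop and 998 ± 203 in F344, and its other 2 probe sets were also called lower. Slc25a17, a carrier of peroxisomes, was 1.59-fold higher (adjusted p = 1.94e-04), with 999.8 ± 193 in F1, 686 ± 75.2 in Cop and 568 ± 82 in F344 and no overlap. Slc25a26, which brings S-adenosylmethionine into mitochondria, was 1.89-fold higher (adjusted p = 5.75e-04) with signals of 144, 272, 293, 208 and 149. Without F1 2 and F1 3 its change was 0.60 (adjusted p = 0.0385), and its F test was lost (adjusted p = 0.0760). Slc25a1, the citrate carrier that supplies fatty acid synthesis, had 1533 ± 509.8 in F344 and 903 ± 172 in F1 and passed the F test (adjusted p = 0.0168), which it did not without F1 2 and F1 3 (0.0560) or under median centring.

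Slc25a30, of the same family, was 1.76-fold higher in Cop, with 781 ± 128, than in the other inbred strains (adjusted p = 0.0191; 0.0625 without Cop 2, 0.0570 without Cop 3, 0.0513 without Cop 4). The ADP and ATP carriers Slc25a4 and Slc25a5 did not pass the F test (adjusted p = 0.511 and 0.0885), and F1 2 and F1 3 gave 827 and 1199 for Slc25a4 and 1175 and 1534 for Slc25a5 against at least 2056 and 2904 in the other F1 arrays. Slc25a5 passed without F1 2 and F1 3 (adjusted p = 0.00265), with quantile normalization (0.0188) and with array weights (0.00577). Slc25a20, the carnitine and acylcarnitine carrier, did not pass (adjusted p = 0.103), but did without F1 4 (0.0101), with quantile normalization (0.0281) and with median centring (0.0168). Nor did Slc27a1, the 1 tested fatty acid carrier (adjusted p = 0.211; 0.0490 without F1 3 and 0.0147 without F1 2 and F1 3).

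Among carriers of urea, ions and peptides, Slc14a1, a urea transporter, had 326 ± 107 in BUF/N, 285 ± 70.7 in WF, 232 ± 55.4 in ACI, 184 ± 33.7 in F344, 159 ± 29 in Cop and 152 ± 70.5 in F1. At its second probe set, U81518_at, Cop was 2.01-fold lower and BUF/N 1.71-fold higher than the other strains (adjusted p = 0.00979 and 0.0367), and the latter call was lost without BUF/N 2 (0.153), BUF/N 4 (0.0998) or BUF/N 5 (0.0980), and under quantile normalization (0.0588), median centring (0.0620) and no filter (0.0606). Slc8a2, a sodium and calcium exchanger, was 1.59-fold lower in F344 (adjusted p = 0.00458), with 86.1 ± 8.91 against 169.5 ± 41.2 in BUF/N. Slc15a2, a peptide carrier of kidney and mammary epithelium, was lowest in WF, with 76.9 ± 15.6 against 123 ± 17.9 in Cop. WF was 1.42-fold below the other strains (adjusted p = 0.0226; 0.0925, 0.0859 and 0.0749 without WF 2, WF 4 or WF 5).

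Slc11a2, which carries ferrous iron, was 1.57-fold lower in F1 at probe set rc_AA892390_s_at and 1.31-fold lower at AF008439_g_at (adjusted p = 0.00433 and 0.00408). Slc40a1, the iron exporter of cells, did not pass the F test (adjusted p = 0.329). Slc12a2, the sodium, potassium and chloride cotransporter of secretory epithelium, had 398 ± 154 in BUF/N, 380 ± 113 in WF, 206 ± 79.4 in Cop and 198 ± 44.6 in F1 (adjusted p of the F test 0.0126), and its call was lost under median centring. The bicarbonate cotransporter Slc4a4 was 1.89-fold lower in ACI (adjusted p = 0.0138; 0.0525 without ACI 2, 0.116 without ACI 5 and 0.357 without both). The anion exchanger Slc4a3 had 202 ± 37.2 in ACI and 124 ± 14.8 in F344 (adjusted p of the F test 0.00823, lost under median centring). Slc4a1, the anion exchanger of red cells, did not pass (adjusted p = 0.117; 0.0253 without ACI 1). Slc35b1, of a family of nucleotide and nucleotide sugar carriers, was 1.30-fold lower in F1 at probe set D87991_g_at (adjusted p = 0.0174), while D87991_at gave an adjusted p of 0.886; the F test of the former was lost under median centring (0.356).

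The comparison of the parents sets a resistant strain against a susceptible one. With a single strain of each kind, a difference tied to resistance cannot be told apart from any other strain difference. Of the 98 probe sets only that of Slc44a4 was called in limma's test, lower in Cop, against 3.45% of all probe sets (1.69% higher, 1.77% lower), and 13 lay at an unadjusted p under 0.05. For F1 against the mean of its parents 33 probe sets of 26 genes were called, 12 higher and 21 lower, against 35.2% of all probe sets (17.4% higher, 17.8% lower). With quantile normalization the split was 13 to 18, and with median centring 15 to 13. Without F1 2 and F1 3 the count was 25, and it was 21 without F1 2 alone. All F1 arrays lay above all 10 parental arrays at 5 probe sets, of Slc25a17, Slc29a1, Slc37a1, Slc44a4 and the anion exchanger Slc4a2 (background 4.19%), and below them at 3, 2 of Slc1a3 and 1 of Slc22a3 (background 3.65%).

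Each inbred strain was also set against the mean of the other 4, comparisons that share arrays. In Cop 12 probe sets were called, 5 higher and 7 lower, against a background of 11.7% of all probe sets (5.54% and 6.21%). In F344 13 were called, 3 higher and 10 lower (background 12.3%, or 4.41% and 7.92%), and in ACI 7, 3 higher and 4 lower (8.57%, or 4.23% and 4.35%). BUF/N had 19, 10 higher and 9 lower (18%, or 8.43% and 9.61%), and WF 5, 3 higher and 2 lower (6.17%, or 3.37% and 2.8%). All 5 shares were near the background. The directions turned with the scaling of the arrays. Quantile normalization gave 8 higher and 3 lower in Cop, 5 and 6 in F344, 3 and 7 in ACI, 8 and 11 in BUF/N and 3 and 2 in WF. Median centring gave 9 and 3, 7 and 4, 2 and 8, 7 and 9, and 3 and 2. Centring moved the median change of all probe sets from -0.03 to 0.07 in Cop, from -0.05 to 0.09 in F344 and from 0.06 to -0.11 in ACI, on the log2 scale.

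Counts rested on single arrays in 4 of these strains. Cop had 7 calls without Cop 1. F344 had 7 without F344 2, 5 without F344 3 and 4 without F344 5. ACI had 3 without ACI 2, 4 without ACI 5 and 2 without both. WF had 2 without WF 1 and 3 without WF 2, WF 3 or WF 5. In BUF/N the count ran from 13 to 21.

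Below the filter lay several genes of interest for the gland. Slc5a5, the iodide transporter of thyroid and lactating breast, had a mean signal of 25.6 over the 30 arrays, Slc30a1, a zinc exporter, 50.01, and Slc30a2, which loads zinc into milk, 58.2. Slc2a2, the glucose carrier of liver and pancreatic islets, and Slc10a1, the bile acid carrier of liver, had 1.30 and 9.13, and 5 of 5 Cop arrays lay at the floor for both genes; Slc30a2, Slc2a2 and Slc10a1 were chosen after their values were seen. No probe set carried the symbol Slc1a5, Slc7a8, Slc20a1, Slc34a2, Slc38a2 or Slc39a1.

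Transport genes under other symbols were examined as well. Of 107 listed ABC transporters, ion pumps, aquaporins, organic anion polypeptides, carriers with other names and partner proteins, 64 were on the array and 40 tested, and 25 differed in the F test, where 51.8% of all probe sets did; each gene entered by the probe set with its smallest p. The smallest p-values were those of Mpc1, a subunit of the mitochondrial pyruvate carrier, Aqp7, the glycerol channel of fat cells, Sfxn1, a mitochondrial serine carrier, and Tap2, a peptide transporter of antigen processing. Mpc1 had 3679 ± 954 in Cop, 4682 ± 772 in F344, 4059 ± 553 in ACI, 2174 ± 428 in BUF/N, 2399 ± 529 in WF and 1857 ± 555 in F1 (SD, n = 5). In F1 8 of the 40 were higher and 10 lower than the mean of the parents, against 17.4% and 17.8% of all probe sets. Between Cop and F344, Aqp1, a water channel, and Abcc9, a regulatory subunit of potassium channels, were higher in Cop by 0.72 and 1.25 on the log2 scale (adjusted p = 0.0213 and 0.0335), and these were the 2 called of the 40, against 3.45% of all probe sets.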

How the data were processed

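RNA of normal mammary gland was hybridised to 32 arrays, grouped by the labels. The deposited intensity values were linear signals of 8799 probe sets from Affymetrix Microarray Suite 5.0, per the labels. Trimmed means, without the lowest and highest 2%, were 250.3 to 250.4, so every array had been scaled to one target; array medians ran from 65.8 to 102.1. Arrays have no depth, and their number limits the precision.

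Symbols came from GEO's platform table, updated by gene identifier for 6994 probe sets; 7018 had 1 symbol, 308 several and 1473 none. Signals below the 25th percentile (18.3) were set to it and log2 transformed, so a fold against dim signals is on that scale. The 59 controls were left out. limma 3.58.1 in R 4.3.3 fitted the 6 group means on 30 arrays with a variance trend, and p-values were adjusted by Benjamini-Hochberg over 5039 probe sets per contrast, threshold 0.05. The fit was tested on simulated data.

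The genes named were the 24 with the smallest adjusted p of the F test, those called between Cop and F344, up to 3 per direction in the other contrasts, and 23 listed genes. The members and lists were chosen with earlier results of these data known. Alternatives were other floors, an offset of 50, other filters, quantile normalization, median centring, array weights, no variance trend, a replicate block, only the arrays compared, and arrays left out. The fits without F1 2 and F1 3, without ACI 2 and ACI 5, and without all of these arrays were chosen after seeing the data.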

Additional observations from a re-analysis of the deposited data

Results flagged for a closer look

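Of 270 groups of 5 arrays at the 45 named probe sets, 9 had a highest or lowest array whose gap to the nearest other array was large for the range of the group. Chance gives this in about 1 of 20 groups. The Slc25a11 signal was 700.7 in Cop 2, against 486.4 to 540.7 in the other Cop arrays. Slc29a1 was 280.4 in BUF/N 2, against 340.7 to 354.0. Slc25a17 was 553.2 in Cop 1, against 701.6 to 738.3, and Slc25a4 was 2392 in the same array, against 1804 to 1941. Slc1a1 was 25.4 in Cop 2, against 45.0 to 56.5. Slc14a1 was 242.7 in F344 4, against 161.4 to 176.4. Slc11a2 was 151.5 in WF 1, against 205.6 to 226.6. Slc12a2 was 671.7 in BUF/N 3, against 313.7 to 348.9, and Slc22a5 was 31.2 in ACI 5, against 73.9 to 97.7.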

How the results depend on the processing

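Each count was recomputed under the listed alternatives, and those not given here stayed within 1.5 times the main count. With array weights the counts were 5 for Cop against F344, 20 for Cop, 24 for F344, 12 for ACI and 31 for BUF/N against the other strains. For Cop against F344 the count was 2 with the floor at the 40th percentile, 3 with only the arrays compared and 2 without ACI 2, ACI 5, F1 2 and F1 3, a setting chosen after seeing the data; it gave 19 for Cop against the other strains. For ACI it was 14 without a filter and 2 without ACI 2 and ACI 5. Leaving out each array in turn gave 45 to 59 calls in the F test, 0 to 1 for Cop against F344, 21 to 38 for F1, 7 to 17 for Cop, 4 to 15 for F344, 3 to 10 for ACI, 13 to 21 for BUF/N and 2 to 6 for WF. The highest minus lowest group mean of Slc25a4, not called, turned to -0.058 with array weights and to -0.11 without F1 2 and F1 3, or without these and ACI 2 and ACI 5; that of Slc25a5 turned to -0.016 without F1 2 and F1 3. The causes of these shifts were not tested. Of 72 results on named genes, 38 kept direction and side of the threshold in every setting. Samples of the same number showed no common deviation over all probe sets (75 pairs, r from -0.45 to 0.40, median -0.02). The 300 pairs of other numbers gave r from -0.37 to 0.39, median 0.007. An effect shared by few genes would not show here, and the labels do not say whether the numbers pair samples. With the replicate number as a block 49 probe sets differed in the F test, 1 was called for Cop against F344, 33 for F1, 11 for Cop, 11 for F344, 6 for ACI, 17 for BUF/N and 5 for WF.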

Other observations

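The pooled samples gave 1 signal per strain and no spread, so they were set beside the single arrays without a test. On the log2 scale with the same floor, the Cop pool minus the F344 pool was -0.35 for Slc44a4, with 144 and 184, both within the range of single arrays of its strain. For Slc22a7, the organic anion carrier, it was 2.63, with 189.8 in the Cop pool and 30.7 in the F344 pool, just below the lowest F344 array. Slc25a30 stood at 803 and 483, and Slc37a1 at 8.10 and 32.7. Slc1a3 (probe set X63744_g_at) stood at 123 and 92.8. These genes were picked after their values were seen.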
